A study of Mus musculus with 4 samples.

Results

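The regions described here are the stretches of accessible chromatin assigned to 8 mouse genes that encode CXC chemokines: Cxcl1, Cxcl2, Cxcl3, Cxcl5, Cxcl9, Cxcl10, Cxcl12 and Cxcl16. The genes were chosen by name. The 4 deposited peak lists were merged wherever peaks shared at least 1 bp, and a merged region was taken when its nearest protein-coding gene was a member that contained it or lay within 50 kb. This gave 28 regions of 91858 in the series, and of 80467 that had any protein-coding gene within 50 kb. By gene, 7 regions belonged to Cxcl12, 6 to Cxcl1, 5 to Cxcl5, 4 to Cxcl3 and 3 to Cxcl2. Cxcl9, Cxcl10 and Cxcl16 had 1 region each. The farthest lay 40832 bp from Cxcl5, and the nearest region beyond the limit lay 58757 bp from the same gene.

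Accessible DNA was cut by a transposase and sequenced (ATAC-seq) in mouse bone marrow-derived macrophages grown with L929 cell medium. Ezh2 knockout (KO) cells came from Ezh2fl/fl;LysM-Cre+/- mice, in which Cre is driven by the Lyz2 locus of myeloid cells, and wild-type (WT) cells from littermate controls whose alleles are not given further in the sources used here. All 4 libraries, 2 per genotype, received medium conditioned by Hepa1-6 cells, a mouse liver cancer line, for 24 hours. Age, sex and pooling of the mice are not given, and nothing says that replicates came from separate animals, so each SD measures the spread between these libraries only.

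Chemokines are small secreted proteins that guide migrating leukocytes along a gradient, and in the CXC class a single residue separates the first cysteines of the protein. Cxcl1, Cxcl2, Cxcl3 and Cxcl5 attract neutrophils through Cxcr2 and are induced in macrophages by NF-kB. Cxcl9 and Cxcl10 attract T and NK cells through Cxcr3 and are induced by interferon. Cxcl12 retains stem cells and leukocytes in the marrow through Cxcr4 and is made mainly by stromal cells, while Cxcl16 is a transmembrane ligand of Cxcr6 that macrophages also use as a scavenger receptor. Ezh2 is the catalytic subunit of Polycomb repressive complex 2, which methylates histone H3 at lysine 27.

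Promoter windows from RefSeq (GRCm38.p6, the assembly behind mm10; 250 bases before to 50 after the start site) were matched for 6 members by symbol, and Cxcl5 and Cxcl16 were not matched. The 5 windows below are shown because they carry the contrast at the start sites: those of Cxcl1, Cxcl2, Cxcl3 and Cxcl10 overlapped called peaks in all 4 libraries, and that of Cxcl9 in none. Capitals mark matches to an NF-kB motif (GGG and TTCC separated by 3 bases of any kind) or to an interferon-stimulated response element (a pair of GAAA separated by 2 bases), each searched on both strands. In order, the windows lie at chr5:90890995-90891294 (+ strand), chr5:90903649-90903948 (+), chr5:90785851-90786150 (+), chr5:92348840-92349139 (- strand) and chr5:92328030-92328329 (-).
Cxcl1: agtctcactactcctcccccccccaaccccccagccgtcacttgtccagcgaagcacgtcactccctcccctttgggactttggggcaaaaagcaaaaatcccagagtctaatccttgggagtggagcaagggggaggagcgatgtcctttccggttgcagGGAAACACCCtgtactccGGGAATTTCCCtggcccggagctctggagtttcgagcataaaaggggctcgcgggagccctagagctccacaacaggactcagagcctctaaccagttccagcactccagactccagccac
Cxcl2: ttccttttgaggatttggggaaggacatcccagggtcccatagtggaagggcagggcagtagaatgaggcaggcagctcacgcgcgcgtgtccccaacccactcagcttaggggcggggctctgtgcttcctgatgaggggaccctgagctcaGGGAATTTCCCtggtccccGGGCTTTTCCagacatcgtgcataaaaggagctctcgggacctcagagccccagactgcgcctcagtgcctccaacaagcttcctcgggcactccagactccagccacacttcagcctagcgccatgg
Cxcl3: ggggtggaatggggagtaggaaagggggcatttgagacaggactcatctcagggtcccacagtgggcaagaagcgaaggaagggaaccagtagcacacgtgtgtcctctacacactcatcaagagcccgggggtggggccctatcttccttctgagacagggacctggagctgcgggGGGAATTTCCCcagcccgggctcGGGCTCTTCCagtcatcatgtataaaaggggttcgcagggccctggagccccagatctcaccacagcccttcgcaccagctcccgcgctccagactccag
Cxcl10: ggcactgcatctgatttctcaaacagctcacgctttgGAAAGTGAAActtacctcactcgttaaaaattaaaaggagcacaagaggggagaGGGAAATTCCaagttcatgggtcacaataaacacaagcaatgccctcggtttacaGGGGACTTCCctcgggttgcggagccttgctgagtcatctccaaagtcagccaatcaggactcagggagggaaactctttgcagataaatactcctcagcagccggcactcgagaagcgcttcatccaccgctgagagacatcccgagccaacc
Cxcl9: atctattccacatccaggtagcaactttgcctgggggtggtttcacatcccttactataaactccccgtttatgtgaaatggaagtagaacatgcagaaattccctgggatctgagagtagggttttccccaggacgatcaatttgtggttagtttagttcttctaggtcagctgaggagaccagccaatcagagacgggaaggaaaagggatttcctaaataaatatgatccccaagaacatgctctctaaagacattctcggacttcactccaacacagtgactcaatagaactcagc

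The Cxcl1, Cxcl2 and Cxcl3 windows share the run GGGAATTTCCC, which holds 2 overlapping NF-kB matches, 1 per strand. It begins 71, 97 and 73 bases before the respective start sites. Each of the 3 windows holds a further NF-kB match, and Cxcl10 has NF-kB matches that begin 159 and 104 bases before its start site. The NF-kB motif occurs in 5.56% of all 32851 promoter windows of the table, and the shared run in 0.0426%. The single response element match, GAAAGTGAAA, lies in the Cxcl10 window 213 bases before the start site, and that motif occurs in 3.44% of all windows. AP-1 sites (TGANTCA, 7.81% of windows) were found in Cxcl9, where the match begins 31 bases after the start site, and in Cxcl10. STAT (TTCNNNGAA, 8.30% of windows) and C/EBP (TTGCNNAA, 10.8%) motifs matched none of the 6 windows. The PU.1 motif (AGGAAG, 35.4%) matched Cxcl2 and Cxcl3, and the TATA box (TATAAA, 13.6%) matched Cxcl3 and, 195 bases upstream, Cxcl9. The Cxcl12 window, which is not printed, had no match to any of the 7 motifs, and its 20 CpG pairs compare with 4 to 11 in the other members and a median of 7 over all windows. These matches describe letters, not bound sites.

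**Figure D1:**
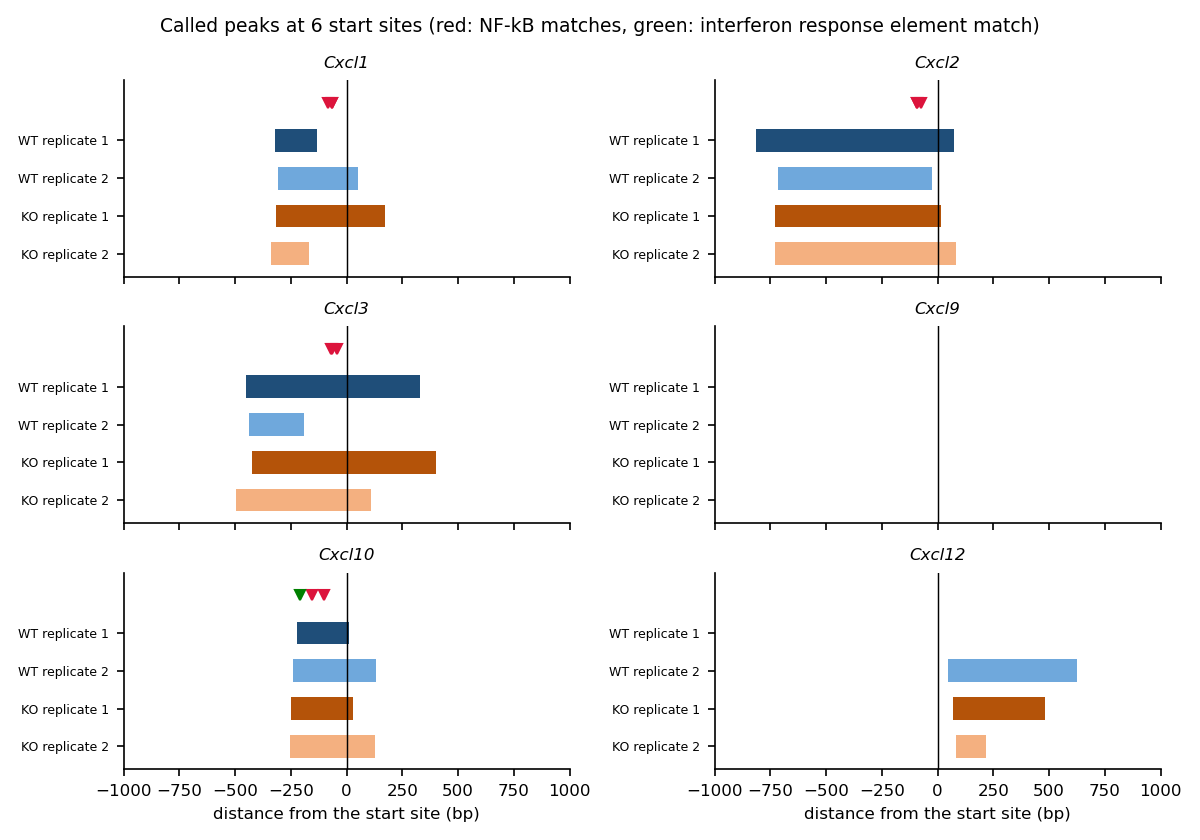
Peaks called in each library around 6 start sites, against distance in bp. Bars span a peak and the black line is the start site. Triangles mark NF-kB (red) and interferon-stimulated response element (green) matches only, and matches to other motifs are not drawn. Peaks at Cxcl1 and Cxcl3 begin at similar places upstream in all 4 libraries but end at different places, and Cxcl9 has none.

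At the start sites, 4 of the 6 members lay inside a region called in all 4 libraries, where the share over 17492 protein-coding genes with a start site in the same table was 51.6%. The exceptions were Cxcl9, whose whole window was free of peaks in each library, and Cxcl12, whose window met a peak only in WT replicate 2, by 3 bases. A region counts as called in a library when 1 of that library's peaks overlaps it, so a peak may stop short of the start site itself.

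Cxcl1 showed this most plainly. Its start-site region (chr5:90890905-90891416) held peaks of 188 and 360 bp in the WT libraries and 491 and 169 bp in the KO libraries. The peaks of WT replicate 1 and KO replicate 2 ended 136 and 172 bases before the start site, so that the NF-kB matches lay under a peak in WT replicate 2 and KO replicate 1 only. The long and the short peaks were thus split 1 to 1 within each genotype. At Cxcl3 (chr5:90785605-90786499) the peak of WT replicate 2 spanned 243 bp and ended 194 bases before the start site, while those of WT replicate 1 and of KO replicates 1 and 2 spanned 783, 822 and 603 bp and covered it.

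The start-site peaks of Cxcl2 and Cxcl10 varied less in where they lay. Cxcl2 (chr5:90903086-90903981) had peaks of 886 and 691 bp in WT against 746 and 814 bp in KO, all of which covered its NF-kB matches. The peak of WT replicate 2 ended 28 bases before the Cxcl2 start site, and the others covered it. Cxcl10 (chr5:92348759-92349145) had peaks of 234 and 372 bp in WT against 277 and 383 bp in KO, and the response element and both NF-kB matches lay under a peak in every library. At Cxcl10 the groups overlapped in width, with a longer peak in replicate 2 of either genotype.

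The start sites of Cxcl1, Cxcl2, Cxcl3 and Cxcl10 ranked low among the start sites called in all 4 libraries. Each peak carries a fold value, its mean enrichment relative to local background by the layout of the lists. That value is the authors' own, and it was turned into a percentile within its own list because the lists are not on a shared scale. At the Cxcl1 start site the percentiles were 22.5 and 3.04 in WT against 15.5 and 22.0 in KO, from fold values of 3.52, 2.76, 3.30 and 3.37. Their mean was higher than that of 2.33% of the 8512 start-site regions called in all 4 libraries. The corresponding shares were 9.90% for Cxcl2, 11.6% for Cxcl3 and 22.9% for Cxcl10, so each of these 4 start sites stood below the lower quartile of 57.0. The median start-site region had a mean percentile of 77.2.

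Stronger peaks lay away from the genes. The longest stretch of the cluster without a peak in any list ran for 63.1 kb, from the 3′ side of Cxcl3 across Cxcl15 to a region 37763 bp from Cxcl1, and the cluster from Cxcl5 to Cxcl2 spans 146.6 kb in all. On the near side of that stretch, 4 regions stood between 37763 and 9063 bp upstream of Cxcl1, each called in all 4 libraries. The closest of them (chr5:90881531-90882182) had percentiles of 90.6 and 92.2 in WT against 71.6 and 87.5 in KO. The other 3 ranged from 27.5 to 77.1 over libraries. Downstream, a region that began 6135 bases after the Cxcl1 start site reached 66.7 and 86.1 in WT against 80.3 and 82.3 in KO. Both flanking regions ranked above the start site in every library.

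**Figure D2:**
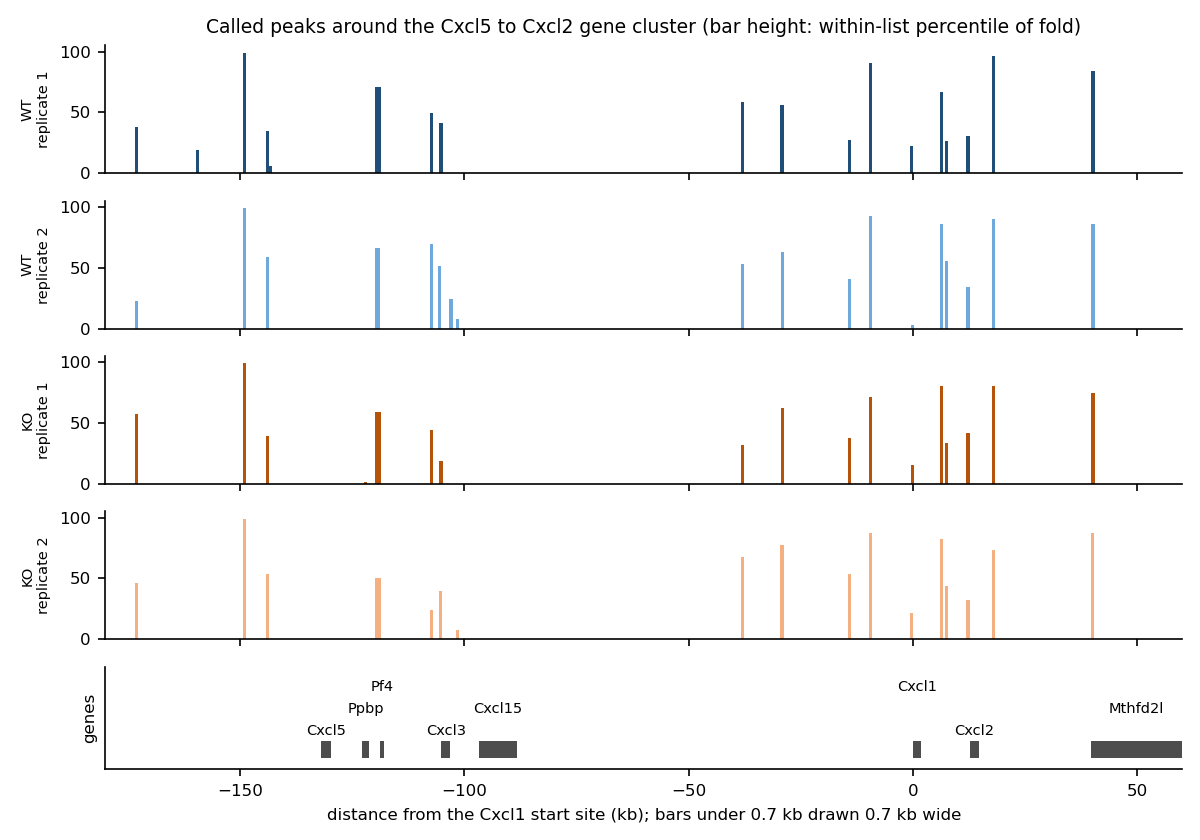
Peaks of each library around the Cxcl5 to Cxcl2 cluster against distance from the Cxcl1 start site in kb; bar height is the within-list percentile of fold and grey boxes are genes. The tallest bar in each library is the region 16776 bp from Cxcl5, and no bar stands over Cxcl15.

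Cxcl2 had its strongest region 3143 bp beyond the gene (chr5:90909081-90909276), a narrow peak of 183 and 194 bp in WT against 161 and 136 bp in KO. Its percentiles were 96.6 and 90.2 in WT against 80.2 and 73.2 in KO. The start-site region of Cxcl2 stood at 30.7 and 34.4 in WT against 42.0 and 32.0 in KO, and the region 4918 bp upstream at 26.6, 55.9, 34.0 and 43.8 in the order WT replicates 1 and 2, then KO replicates 1 and 2.

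Cxcl5 had no region inside the gene or at its ends. Its strongest region lay 16776 bp from the gene (chr5:90741946-90742522) and was among the strongest in each whole list, with percentiles of 99.2 and 99.3 in WT against 99.7 and 98.5 in KO. The fold values were 9.28, 9.18, 10.6 and 8.91, and the widths 497, 531, 452 and 552 bp. All 4 percentiles lie at the top of the scale, where differences in fold hardly show. Of the other Cxcl5 regions, those at 40832 and 11811 bp were called in all 4 libraries, and those at 27505 and 11226 bp in WT replicate 1 alone, at percentiles 19.2 and 5.69. Cxcl3 likewise had weak regions near its far end. The region 143 bp beyond the gene was called in WT replicate 2 only, and that at 1547 bp in WT replicate 2 and KO replicate 2, at 8.32 and 7.40.

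The interferon-induced ligands had a single region each, although their surroundings held more. Within 50 kb of Cxcl9 there were 11 regions, of which 10 were nearer to Art3, Sdad1, Naaa or Cxcl10. Cxcl10 lies inside the body of Art3, and 10 of the 11 regions within 50 kb of it were likewise assigned elsewhere. Cxcl16, with 17 regions within 50 kb, kept 1, which also overlaps the start of the neighbouring gene Zmynd15. A count of 1 for these genes is therefore partly a result of the assignment. With every region within 50 kb of a member counted, whichever gene was nearest, the family had 60 regions, 43 of them shared by the 4 libraries.

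Cxcl9 held the only region of the family that was called in both libraries of 1 genotype and in neither of the other. The 155 bp region lay 2890 bp beyond the gene (chr5:92318287-92318441), with peaks of 143 and 121 bp and percentiles of 30.8 and 35.1 in the WT libraries. No peak was called there in either KO library. Over all 80467 assigned regions, 1.94% were called in both WT and neither KO library, and 1.44% in both KO and neither WT library, while the family had 1 and 0 of 28. With 2 libraries against 2, an exact two-sided permutation test over libraries cannot give a p below 0.333, and single regions were not tested. Depth is unknown, and a missing peak is not evidence of closed chromatin. With the weakest 50% of each list removed, the Cxcl9 region was no longer present. When either WT library was left out, a single call was enough, and regions called only in WT numbered 2 without replicate 1 (8.33%, beside 9.32% of all assigned regions) and 5 without replicate 2 (18.5%, beside 7.16%). Regions called only in KO numbered 1 without WT replicate 2 (3.70%, beside 4.16%) and 1 without KO replicate 1 (3.57%, beside 7.63%).

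Cxcl10 and Cxcl16 each had their region called in all 4 libraries. For Cxcl10 the percentiles were 50.3 and 52.9 in WT against 62.1 and 53.4 in KO, higher by 6.19 points in KO on average and without overlap between the groups. At Cxcl16 (chr11:70459447-70460018) they were 21.6 and 48.6 in WT against 32.4 and 58.8 in KO. There the libraries differed more within a genotype than between genotypes, and replicate 2 was the higher in both.

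Cxcl12 had the most regions, and fewer of them were shared by all libraries than not. Of its 7 regions, 3 were called in all 4 libraries, 1 in 3 and 3 in a single library. The region 1139 bp upstream (chr6:117166938-117167396) had percentiles of 83.3 and 89.6 in WT against 81.8 and 55.9 in KO. Its peaks spanned 149 and 171 bp in WT against 239 and 453 bp in KO, so KO peaks were wider and ranked lower, without overlap between the groups. All 4 peaks began within 6 bp of each other and differed in where they ended. The region that begins 47 bases after the start site was called in WT replicate 2 and in both KO libraries, with percentiles from 2.73 to 15.6, near the bottom of the lists. The intragenic region (chr6:117173907-117174263) stood at 41.1 and 40.3 in WT against at 53.8 and 20.2 in KO. The region 9073 bp beyond the gene stood at 33.3, 49.7, 24.1 and 58.7 in the order given above.

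**Figure D3:**
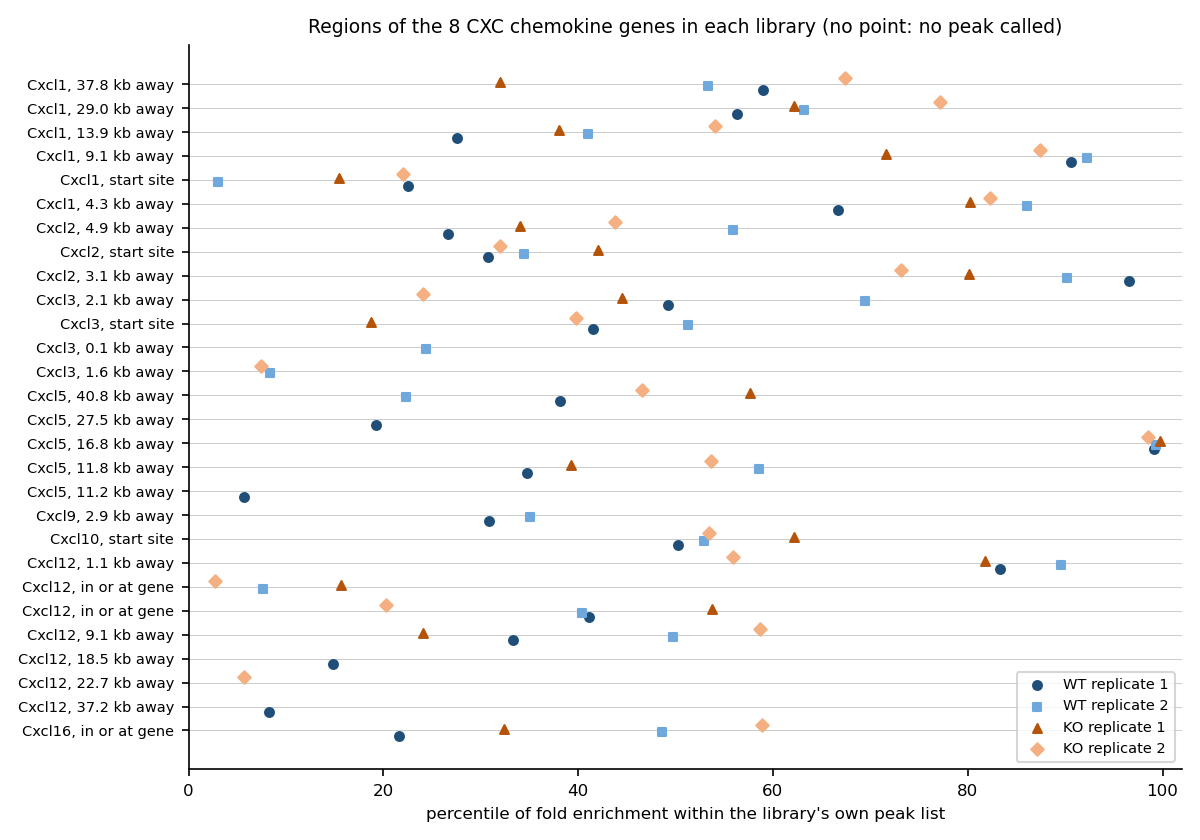
Percentile of fold within each library's own list for the 28 regions, by gene and distance to the gene; a missing point means that no peak was called. Cxcl5 at 16.8 kb lies at the right edge in all 4 libraries, and regions called in 1 or 2 libraries lie below 40.

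Across the family, 19 of 28 regions were called in all 4 libraries (67.9%), beside 59.5% of all assigned regions. With the weakest 50% of each list removed this order turned, to 41.2% of 17 regions beside 59.1%, and with the weakest 25% removed the shares were 63.2% and 65.3%. A further 6 were called in 1 library (21.4%, beside 21.7%), 2 in 2 and 1 in 3. Median width was 459 bp in the 19 shared regions and 519 bp in all shared regions, and the median of the mean percentile was 46.5 and 61.0. Libraries called 24 and 23 of the 28 regions in WT against 20 and 22 in KO, which gives 23.5 ± 0.707 and 21.0 ± 1.41 (SD, n = 2 each). Of all 91858 regions, the WT libraries called 74.5% and 78.7% and the KO libraries 72.0% and 76.9%, so the mean was higher in WT over all regions too.

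Genotypes were then compared by rank and by width in the 19 shared regions. In 5 of them both WT percentiles exceeded both KO percentiles (26.3%), beside 17.9% of all 47917 shared regions. In 2 the reverse held (10.5%, beside 17.0%). The 5 were the region 9063 bp upstream of Cxcl1, the region beyond Cxcl2, the 2 shared regions of Cxcl3 and the region upstream of Cxcl12. The 2 were the Cxcl10 start site and the Cxcl5 region at 40832 bp, where the percentiles were 38.1 and 22.4 in WT against 57.6 and 46.5 in KO. With so few regions these shares are a description. Over the 19 regions the median difference was -0.16 percentile points (KO minus WT), against -0.18 over all shared regions.

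Each of these 7 differences was larger than the pooled SD of its replicates, which rests on 2 libraries per genotype. Groups of 2 that do not overlap always differ by more than that SD, so this follows from the selection and adds no support. The region 2107 bp upstream of Cxcl3 (chr5:90783783-90783994) had the lowest KO rank relative to WT, at 49.2 and 69.4 in WT against 44.5 and 24.0 in KO, a difference of -25.0 points with a replicate SD of 14.4. At the Cxcl3 start site the values were 41.6 and 51.3 in WT against 18.7 and 39.8 in KO, a difference of -17.2 points with a replicate SD of 11.6. The region beyond Cxcl2 differed by -16.7 points with a replicate SD of 4.75. Among the 7 regions without overlap it had the largest difference relative to that SD. The region at 40832 bp from Cxcl5 differed by 21.8 points with a replicate SD of 9.64. Over all shared regions the central 90% of differences ran from -17.8 to 15.5 points. The Cxcl3 and Cxcl5 regions that differed by -25.0 and 21.8 points lay outside that range. By definition it leaves out the outermost of all shared regions, so a place outside it does not mark these regions as unusual.

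Counts of this kind depend on each library. Without WT replicate 1, WT replicate 2, KO replicate 1 or KO replicate 2 in turn, the regions ranked higher in KO numbered 3, 9, 7 and 5, and those ranked higher in WT 8, 6, 7 and 7. A single library standing for a genotype is separated from the other pair more easily, and over all shared regions the KO-higher share then rose to between 30.6% and 36.0% and the WT-higher share to between 31.7% and 37.0%. The balance between directions in the family turned from WT to KO when WT replicate 2 was left out, and over all shared regions it turned the same way (36.0% higher in KO and 32.4% in WT).

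**Figure D4:**
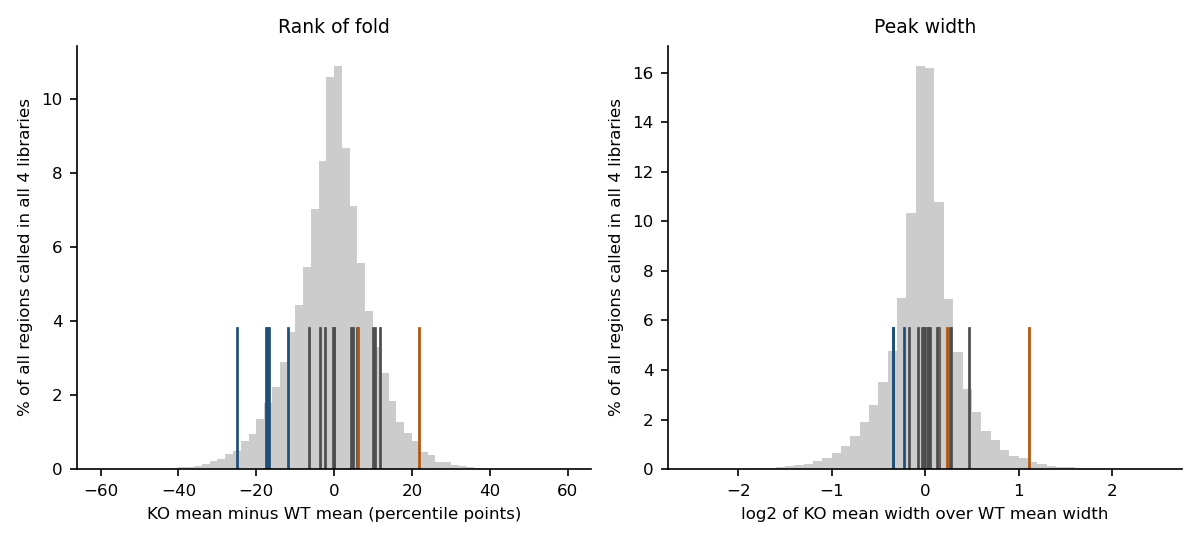
Grey bars give the share of all 47917 shared regions at each genotype difference, in rank (left) and in log2 width (right); vertical lines are the 19 family regions, blue where WT and orange where KO was higher or wider without overlap, dark grey where groups overlapped. Most lines lie within the central 90% of each distribution (-17.8 to 15.5 points and -0.66 to 0.62), and the line at a log2 width of 1.11 is the region upstream of Cxcl12.

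Width differed as often in either direction. KO peaks were wider without overlap in 3 regions (15.8%, beside 16.5% of all shared regions) and WT peaks in 3 (15.8%, beside 16.8%). KO was wider 9063 bp upstream of Cxcl1 (519 and 547 bp in WT, 652 and 598 bp in KO), downstream of Cxcl1 (364 and 359 bp, 415 and 382 bp) and upstream of Cxcl12. WT was wider in the region beyond Cxcl2, in the region 37763 bp from Cxcl1 (381 and 436 bp, 367 and 333 bp) and 9073 bp beyond Cxcl12 (340 and 373 bp, 281 bp in both KO libraries). Upstream of Cxcl1 at 9063 bp and upstream of Cxcl12 the wider KO peak had the lower rank, downstream of Cxcl1 the ranks overlapped, and beyond Cxcl2 the KO peak was both narrower and lower. The fold value is a mean over the peak, and the part of width in the ranks was not tested. Without the same libraries in turn, KO-wider regions numbered 7, 9, 6 and 7, beside 29.98%, 35.4%, 37.8% and 27.9% of all shared regions. WT-wider regions numbered 6, 6, 5 and 4, beside 35.7%, 30.8%, 27.8% and 39.3%. The region upstream of Cxcl12 had the largest log2 width ratio of the 19, at 1.11, where the central 90% of all shared regions ran from -0.66 to 0.62. Without KO replicate 2 it was 0.58. The median log2 ratio of KO to WT width was 0.04, against -0.00 over all shared regions.

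Summed over its regions, each gene had an amount of called sequence that ordered the members in much the same way in each library. Cxcl1 had the most, at 1981 and 2416 bp in WT against 2612 and 2117 bp in KO, above every library's value for Cxcl2 (1319 to 1726 bp). Cxcl2, Cxcl12 (1092 to 1425 bp), Cxcl5 (800 to 1357 bp) and Cxcl3 (802 to 1034 bp) followed, and neighbours in this order overlapped. Cxcl16 (451 to 529 bp), Cxcl10 (234 to 383 bp) and Cxcl9 (0 to 143 bp) came last, without overlap between neighbours. Called sequence was higher in both KO libraries at Cxcl3, at 959 and 802 bp in WT against 1034 and 999 bp in KO, as at 13.8% of the 17092 genes with a region. It was higher in both WT libraries at Cxcl9, as at 16.5% of those genes. Over the whole family the sums were 7851 ± 130 bp in WT against 7835 ± 208 bp in KO (SD, n = 2 each), which differed by less than the replicates did.

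**Figure D5:**
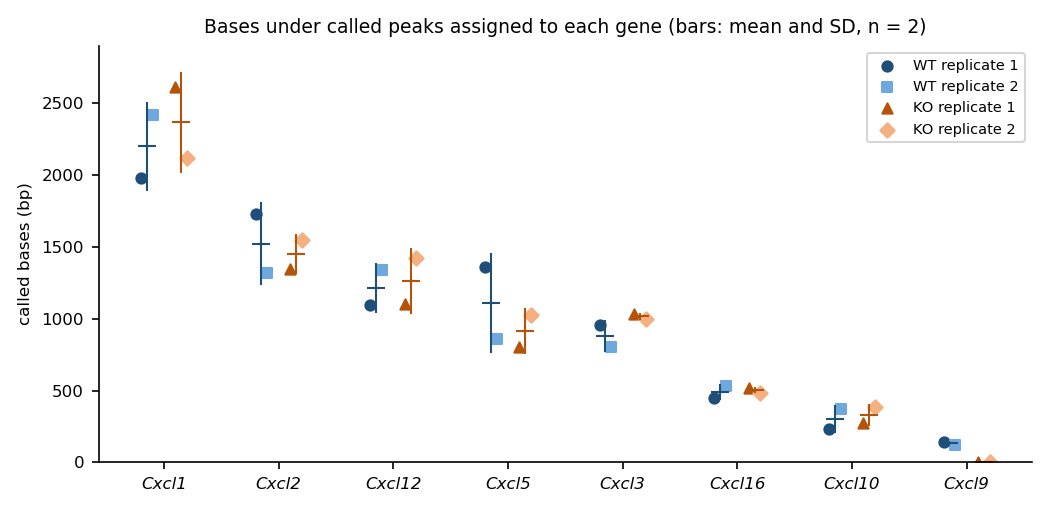
Bases under called peaks assigned to each gene, by library; points are libraries, and horizontal marks with bars are the mean and SD of each genotype (n = 2). Values fall from Cxcl1 (1981 to 2612 bp) to Cxcl9 (0 to 143 bp), and the genotypes overlap at all genes but Cxcl3 and Cxcl9.

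Genes whose called sequence was most alike over the 4 libraries were sought by Euclidean distance of log2(bases + 1). For Cxcl12 the nearest was Olfml2b (distance 0.0221, 1081 and 1334 bp in WT, 1113 and 1426 bp in KO). For Cxcl2 it was Tmed8 (0.0535) and for Cxcl9 it was Esp1 (0.0523, 138 and 122 bp in WT against 0 bp in KO). Cxcl16 was nearest to Cmtm2b (0.0829), Cxcl3 to Haus4 (0.105), Cxcl10 to Gm7694 (0.119), Cxcl1 to Hmgxb3 (0.143) and Cxcl5 to Spdye4c (0.144). With 4 libraries this measure mostly reflects the amount called.

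Other genes of the system were counted as lists. Of 7 further CXC ligands, 6 were protein-coding in the table and 13 regions were assigned to 4 of them, 6 called in all 4 libraries. Among the shared ligand regions, 0 ranked higher in KO and 1 in WT without overlap (beside 17.0% and 17.9% of all shared regions). By width, 2 were wider in KO and 1 in WT (beside 16.5% and 16.8%). The Pf4 region was the 1 higher in WT and was also wider in KO. Cxcl17, a mucosal chemokine, had 2 regions called only in KO and 1 only in WT. Pf4, the platelet factor that lies between Cxcl5 and Cxcl3, had a start-site region in all 4 libraries, at percentiles 71.1 and 66.4 in WT against 59.1 and 50.8 in KO. Cxcl13, which attracts B cells, and Cxcl15 had no region. Of the 8 receptors, Cxcr6 and Ackr1 had none, and 15 of 27 regions were called in all 4 libraries. Start sites of Cxcr3, Cxcr4 and Ackr3 were called throughout, and that of Cxcr2 in no library. No receptor region was called in both libraries of 1 genotype and neither of the other. Among the shared receptor regions, 1 ranked higher in KO and 1 in WT without overlap (beside 17.0% and 17.9% of all shared regions). By width, 2 were wider in KO and 4 in WT (beside 16.5% and 16.8%). The 8 regulators of NF-kB, interferon signalling and chemokine mRNA decay had 75 regions, and 52 of these were shared by the 4 libraries. Among those 52, 10 ranked higher in KO and 5 in WT without overlap (beside 17.0% and 17.9%). By width, 8 were wider in KO and 9 in WT (beside 16.5% and 16.8%). Of the 75, 2 were called only in KO (Nfkbia, Irf1) and 2 only in WT (both Irf8). Over all assigned regions, 59.5% were called in all 4 libraries, 1.44% only in KO and 1.94% only in WT. Beside those shares, the genotype-only counts here and at Cxcl17 are too small to mark out any gene.

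The labelled cell type was checked at marker genes. Of 8 macrophage markers, 5 had a matched start site. All 5 start sites lay in a region called in all 4 libraries, beside 51.6% over all matched genes. Among markers of other cells the start sites called in this way were those of S100a8, as 1 of 8 neutrophil genes, and of Kdr, the single endothelial gene matched. None was called for 3 hepatocyte, 3 dendritic, 3 T-cell, 2 B-cell and 2 fibroblast genes. At Ezh2 the start-site region had percentiles of 71.4 and 67.9 in WT against 80.2 and 73.9 in KO, and a region near the other end of the gene 73.7 and 92.7 in WT against 24.9 and 23.4 in KO. Peak lists do not measure whether the floxed part was deleted.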

How the data were processed

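ATAC-seq peak lists of 4 libraries were analysed, grouped by their titles. Per the submitters' processing notes, fastp, Bowtie2 and MACS2 were used with mm10; for versions, read shifting and filters the sources used here say nothing. Lists were called per library, not pooled. Each deposited peak has a score (not used), a fold value (a ratio over local background), a −log10 p and a −log10 q, for the p-value and q-value of the peak caller (largest q 0.0497). The files hold no counts, so depth is unknown.

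Peaks were merged at 1 bp overlap with pandas 2.3.3 (Python 3.11.15). Regions went to the nearest of 21900 protein-coding genes of RefSeq GRCm38.p6 by distance to the gene body, ties going to the nearer gene end. Percentiles of fold were computed within each list, taking a library's highest peak in a region. Merging, calling and ranking were tested on simulated lists. Members, lists and motifs were chosen with earlier results of these data known. All members and all their regions are described; the 3 genes most alike were computed per member and the nearest is named. Alternatives covered peak thresholds, overlap, assignment, ranking, width, a replicate block and leaving out each library.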

Additional observations from a re-analysis of the deposited data

How the results depend on the processing

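No result here has a test, so alternatives are compared by count. With the weakest 25% of each list removed, 12 family regions were called in all 4 libraries (63.2%, beside 65.3% of all assigned regions). Of these 12, 1 ranked higher in KO and 3 in WT, beside 17.4% of all shared regions in either direction. With the weakest 50% removed, 17 regions remained to assign, and 7 were called in all 4 libraries (41.2%, beside 59.1%, which turns the order of the shares). In that setting 0 were called only in WT (beside 2.65%). Of the 7, 3 were wider in KO (42.9%, beside 16.6%) and 1 in WT (14.3%, beside 16.1%). By rank, 1 was higher in KO (14.3%, beside 17.6%) and 3 in WT (42.9%, beside 16.8%). When a call needed 50% of the region covered, 1 region was called only in KO (3.57%, beside 2.22%). Then 1 ranked higher in KO (7.14%, beside 17.8%) and 3 in WT (21.4%, beside 17.2%). With a limit of 20 kb, 1 ranked higher in KO (6.25%, beside 17.2%). Counting every region within 50 kb of a member gave 60 regions, 43 in all 4 libraries (71.7%, beside 59.5%) and 2 only in WT (3.33%, beside 1.94%). Of the 43, 9 ranked higher in KO (20.9%, beside 17.0%) and 10 in WT (23.3%, beside 17.9%). Peaks were wider in KO in 7 (16.3%, beside 16.5%) and in WT in 5 (11.6%, beside 16.8%). Ranking among peaks of shared regions only gave 4 higher in KO (21.1%, beside 18.7%). It turned the median rank difference to 0.23, beside 0.24 over all shared regions. A replicate block, comparing libraries of equal number, gave 5 regions higher in KO (26.3%, beside 24.98%) and 5 in WT (26.3%, beside 26.7%). By width it gave 6 wider in KO (31.6%, beside 24.97%) and 3 in WT (15.8%, beside 25.5%). The block raised the shares over all shared regions too, from 17.0% and 17.9% by rank and from 16.5% and 16.8% by width. Deviations of equal-numbered libraries correlated at 0.0103 (percentile) and 0.0117 (log2 width) over 47917 regions. A correlation over regions leaves out differences that hold for a whole list, so it cannot show whether equal numbers share more than a label. The largest fold was 45.4 in WT replicate 1 and 45.5 in KO replicate 1. In replicate 2 it was 25.5 in WT and 25.2 in KO. All other planned settings kept each count within 1.5 times.

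Leaving out each library in turn gave 24 to 28 family regions, 19 to 20 called in all remaining libraries (67.9% to 83.3%, beside 65.1% to 65.8%). Regions called only in KO numbered 0 to 1 (beside 3.25% to 7.63%) and only in WT 1 to 5 (beside 4.01% to 9.32%). By rank, 3 to 9 were higher in KO (beside 30.6% to 36.0%) and 6 to 8 in WT (beside 31.7% to 37.0%). By width, 6 to 9 were wider in KO (beside 27.9% to 37.8%) and 4 to 6 in WT (beside 27.8% to 39.3%). The median rank difference ran from -3.52 to 6.25 points, beside -0.78 to 0.32 over all shared regions. The median log2 width ratio ran from -0.08 to 0.13, beside -0.06 to 0.03. The difference in called sequence over the family (KO minus WT, -16.0 bp) ran from -206 bp to 420.5 bp over all alternatives. Of 558 recomputed values of single regions, 45 changed sign. The settings of peak threshold, coverage, merging, assignment and distance left the values of single regions as they were. Those settings therefore add to the 558 without bearing on sign. Unknown depth limits each statement about a missing peak.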
